A study of Mus musculus with 6 samples.

Results

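The 10 genes described are the early growth response genes Egr1, Egr2 and Egr3, the nuclear receptor genes Nr4a1, Nr4a2 and Nr4a3, the immediate early response genes Ier2, Ier3 and Ier5, and Myc. They were taken by symbol from a table of 17761 mouse genes, and all 10 were present, each in a single row. Genes of this kind are known as primary response genes: growth factors, stretch, injury or inflammatory signals switch them on before any new protein is made, and their short-lived transcripts usually fall again soon after. EGR proteins are zinc-finger transcription factors that bind GC-rich promoters, NR4A proteins are nuclear receptors that act without a known natural ligand, and MYC drives cell growth. In the vessel wall, Egr1 is known as a rapid sensor of injury and flow.

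RNA-seq libraries came from 3 Control and 3 Model samples, numbered 1 to 3 in each group. In the Model group the inferior vena cava, the main vein of the lower body, was tied off and taken with its clot after 24 h. The sources used here do not say how the Control group was treated, nor give strain, age or genotype, and every library is labelled as thrombus tissue. Nothing states that libraries of a group are separate animals, so p-values measure the spread between these libraries, which may be technical. Surgery, stasis and clot cannot be told apart in this design, nor can more cells of a type and more RNA per cell.

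Total counts ran from 31924426 to 38118463 in Control and from 25336173 to 28193281 in Model. All 4 endothelial and all 4 smooth muscle markers were detected in each library, with sums of 1230 to 1490 and 2630 to 4240 CPM (counts relative to library size, with TMM scaling) in Control and 1020 to 1580 and 881 to 2420 CPM in Model. The 5 platelet markers summed to 50.3 to 146 CPM in Control and 381 to 886 CPM in Model, so the label of thrombus for Control tissue was not matched by blood-clot markers at the Model level. Liver transcripts were uneven, the sum of 3 hepatocyte markers being 4320 CPM for Model 2, 519 CPM for Control 1 and at most 139 CPM elsewhere.

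At 24 h, Ier3 was 12.5-fold higher in Model than in Control, and it was the only one of the 10 genes past the test. Transcripts of Myc were higher in every Model library than in any Control library, as were 12.1% of genes tested, but missed the threshold. Egr3 was lower in every Model library, as were 11.4% of genes tested, and Egr2 in 2 of the 3, also without passing the test. Across all genes tested, 4.07% passed (2.71% higher and 1.36% lower in Model; edgeR's quasi-likelihood test, Benjamini-Hochberg adjusted p under 0.05), so a single call among 10 genes says nothing of the group as a whole. By DESeq2, which called 9.05% of genes (4.75% higher), 2 of the 10 were called, and by limma-voom, which called 3.32%, 1 was. The median log2 fold change of the 10 genes was 0.07, beside -0.01 over all 13907 genes tested. Without Model 2 the calls were 2, Ier3 and Myc. Among all genes the calls fell from 566 to 317 without Model 1, and the lower ones from 189 to 92 without Control 1 and to 96 without Model 1.

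**Figure D1:**
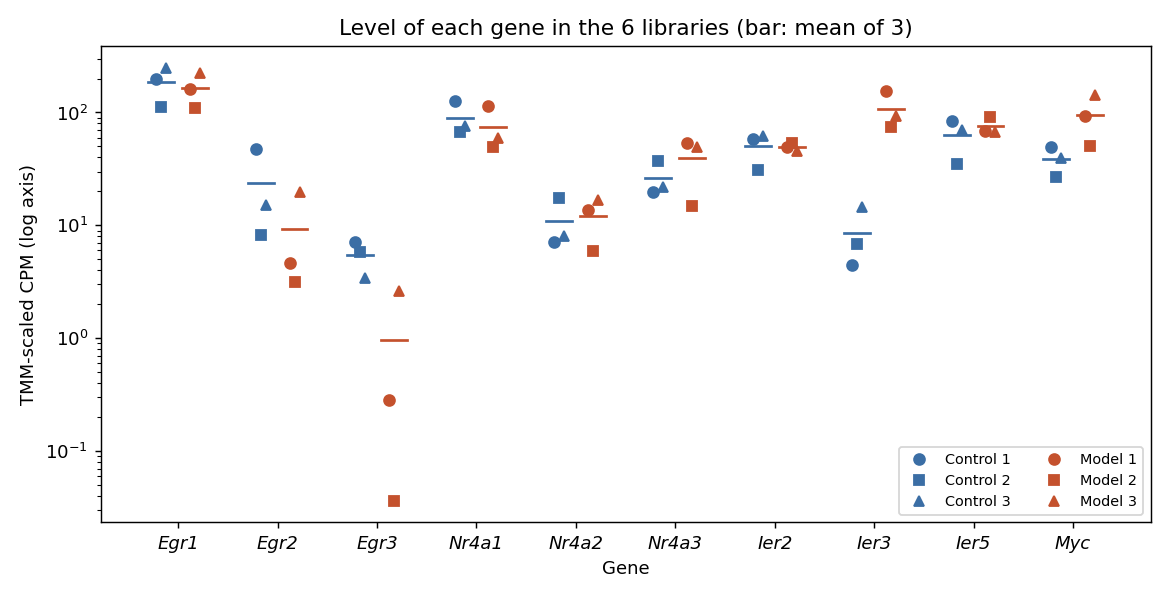
Level of each of the 10 genes in the 3 Control (blue) and 3 Model (red) libraries, as TMM-scaled CPM on a log axis; symbols mark the library number and short bars the mean of 3. Ier3 ranges from 4.44 to 14.4 CPM over the Controls and from 73.7 to 154 CPM over the Model libraries, while most other genes overlap between the groups.

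Promoter sequences, 250 bases before to 50 after the start site in RefSeq's GRCm38.p6, were at hand for 6 of the 10 genes, and those of 5 are shown as context for the genes compared below. Ier3 is the gene that rose, the 3 NR4A genes are compared with one another, and Egr2 stands for the EGR genes. Capitals mark matches on either strand: in Ier3 to the consensus of NF-kB, a factor of inflammatory signalling; in the NR4A genes to TGACG, the core of the cAMP response element; and in Egr2 to the CArG box bound by serum response factor (SRF).
Ier3 (chr17:35821463-35821762, plus strand): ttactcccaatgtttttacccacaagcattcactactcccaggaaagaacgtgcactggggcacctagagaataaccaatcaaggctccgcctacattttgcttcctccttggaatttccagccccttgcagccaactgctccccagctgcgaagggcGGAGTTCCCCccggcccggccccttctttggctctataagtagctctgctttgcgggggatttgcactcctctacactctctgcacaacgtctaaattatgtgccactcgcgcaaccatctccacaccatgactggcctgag
Nr4a1 (chr15:101266596-101266895, plus strand): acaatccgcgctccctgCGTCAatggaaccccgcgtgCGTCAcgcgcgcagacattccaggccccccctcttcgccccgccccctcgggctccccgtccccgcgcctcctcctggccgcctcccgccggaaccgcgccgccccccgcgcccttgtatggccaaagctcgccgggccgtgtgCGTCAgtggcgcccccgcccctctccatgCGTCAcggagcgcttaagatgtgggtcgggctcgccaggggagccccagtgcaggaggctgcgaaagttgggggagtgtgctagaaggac
Nr4a2 (chr2:57123954-57124253, minus strand): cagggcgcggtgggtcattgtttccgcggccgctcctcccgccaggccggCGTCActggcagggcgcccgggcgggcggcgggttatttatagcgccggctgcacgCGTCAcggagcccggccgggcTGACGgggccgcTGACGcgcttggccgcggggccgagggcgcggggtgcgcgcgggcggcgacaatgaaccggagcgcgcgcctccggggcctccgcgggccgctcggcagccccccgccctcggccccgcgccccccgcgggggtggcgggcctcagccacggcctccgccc
Nr4a3 (chr4:48045055-48045354, plus strand): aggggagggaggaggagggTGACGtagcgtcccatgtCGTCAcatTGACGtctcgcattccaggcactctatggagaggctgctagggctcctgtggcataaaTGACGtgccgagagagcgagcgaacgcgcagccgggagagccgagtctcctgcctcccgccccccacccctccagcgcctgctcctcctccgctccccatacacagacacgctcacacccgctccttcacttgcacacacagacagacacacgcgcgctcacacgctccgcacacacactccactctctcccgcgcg
Egr2 (chr10:67537619-67537918, plus strand): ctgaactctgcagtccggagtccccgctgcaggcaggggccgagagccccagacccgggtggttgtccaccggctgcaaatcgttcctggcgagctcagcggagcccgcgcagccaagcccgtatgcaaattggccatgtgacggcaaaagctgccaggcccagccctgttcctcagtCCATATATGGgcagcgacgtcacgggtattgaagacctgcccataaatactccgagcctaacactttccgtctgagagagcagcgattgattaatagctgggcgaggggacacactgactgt
Each NR4A promoter holds 4 matches to TGACG, none overlapping, whereas 0.231% of the 32851 promoters of this length hold 4 or more and 20.8% hold at least 1. The NF-kB match of Ier3 begins 92 bases before the start site, and 4.51% of all promoters hold such a match. The CArG box of Egr2 begins 72 bases before its start site, and 1.63% of all promoters hold one. Egr2 has further start sites, and the window shown was picked because it holds both a CArG box and TGACG. The 1.63% is therefore no measure of how unusual its CArG box is. It also carries 2 unmarked TGACG matches. The most upstream Egr2 window, 67535249 to 67535548, holds no CArG box. The window of Nr4a1 holds an NF-kB match too. Neither the EGR motif GCGNGGGCG, found in 5.55% of promoters, nor the NR4A motif AAAGGTCA, found in 1.51%, occurs in the Ier3 window. The EGR motif occurs once each in the windows of Nr4a1 and Nr4a2, and that of Ier5, the sixth at hand, holds no match to any of the motifs named here. A match of letters is a description and does not show binding.

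Ier3 encodes a small protein, also called IEX-1, that is induced by NF-kB and modulates ERK signalling and cell death. The gene (ENSMUSG00000003541) lies on chromosome 17 at 35821684 to 35822923 of GRCm38. Control 1, 2 and 3 held 157, 282 and 490 counts, and Model 1, 2 and 3 held 3815, 2023 and 2379. On the CPM scale these are 4.44, 6.87 and 14.4 in Control and 154, 73.7 and 93.7 in Model. Every Model library was above every Control library. The log2 fold change was 3.64 (SE 0.51, 95% interval 2.53 to 4.76, adjusted p = 0.00153 by edgeR's quasi-likelihood test). The call held in all 14 other settings, with log2 fold changes from 3.29 to 4.24. Neutrophil markers differed in the same direction: all 6 of 6 rose, none was at 0 in a library, and their summed level was 28.4 to 99.5 CPM in Control and 2050 to 6180 CPM in Model. Platelet markers (4 of 5 rose) and erythroid markers (3 of 3 tested rose) were also higher, while no endothelial marker passed the test. For Model 1, 2 and 3 the neutrophil sum was 2090, 6180 and 2050 CPM. In the same order the platelet sum was 886, 817 and 381 CPM and the erythroid sum 14100, 26000 and 4450 CPM. The endothelial sum was 1580, 1020 and 1260 CPM. An order over 3 libraries cannot tie Ier3 to a cell type. The part of any of these cells in the Ier3 result was not tested.

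The other IER genes did not pass the test. Ier2 encodes a nuclear protein of the serum response and lies on chromosome 8 (84661331 to 84662852). It was at 58, 30.8 and 62.3 CPM in Control and 49.9, 53.6 and 45.2 CPM in Model, so the Model values lay inside the Control range. Its log2 fold change was -0.02 (95% interval -0.86 to 0.81), with a sign that changed when 1 library was left out. Ier5, whose product is linked to the heat shock factor HSF1, lies on chromosome 1 (155096361 to 155099636). It was at 83.5, 35 and 70.5 CPM in Control and 68.3, 91.1 and 66.5 CPM in Model, with overlapping groups and a log2 fold change of 0.26 (95% interval -0.55 to 1.06). In both genes Control 2 was the lowest of the 6 libraries. The related gene Ier5l was below the filter on low counts, with counts of 0, 12 and 0 in Control and 1, 7 and 192 in Model.

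**Figure D2:**
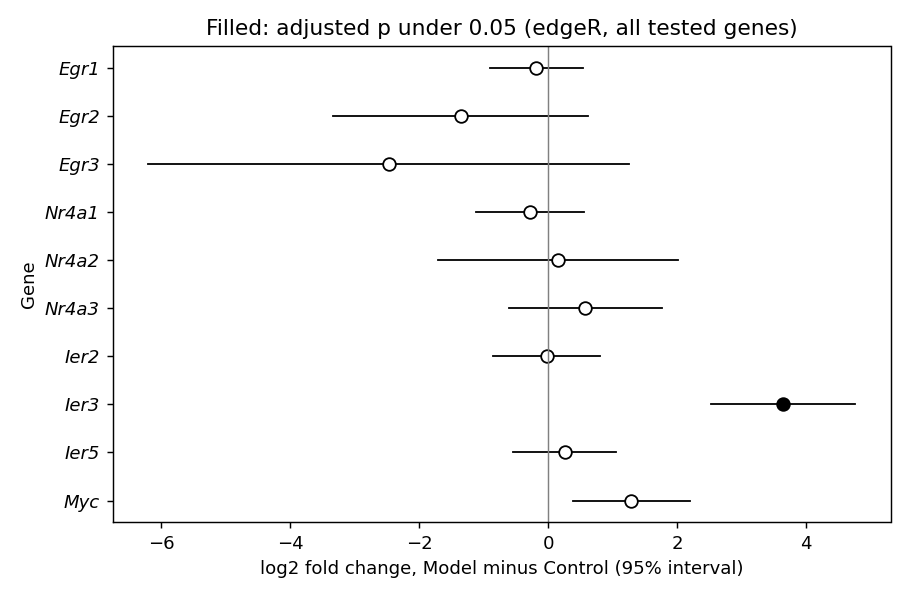
Log2 fold change of Model minus Control for the 10 genes with 95% intervals from the edgeR fit; the filled point passed the test over all genes. Ier3 stands at 3.64, Myc at 1.29, and the widest interval is that of Egr3, from -6.20 to 1.26.

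Within the IER family both ratios with Ier3 separated the groups, which largely restates the rise of Ier3 given above. The log2 ratio of Ier2 to Ier3 within a library was 3.69, 2.15 and 2.11 in Control and -1.63, -0.46 and -1.05 in Model. The ratio, which takes no account of length, was positive in every Control library and negative in every Model library. The ratio of Ier3 to Ier5 moved from a mean of -2.94 ± 1.10 to 0.45 ± 0.74 (SD, n = 3 each), and that of Ier2 to Ier5 from -0.30 ± 0.20 to -0.59 ± 0.16. In all, 10 pairs of genes were compared by an exact permutation test over the libraries, two-sided, for which 3 against 3 allows no p below 0.1. Both ratios with Ier3 reached that smallest p of 0.1, or 0.2 after Benjamini-Hochberg adjustment over the 10 pairs, and Ier2 to Ier5 had an exact p of 0.2 (0.333 adjusted).

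No EGR gene passed the test, and the 3 genes differed in how tightly their libraries agreed. Egr1 (ENSMUSG00000038418) lies on chromosome 18 (34859823 to 34864984 of GRCm38). It stood at 199, 112 and 250 CPM in Control and 163, 110 and 223 CPM in Model. The groups overlapped almost entirely, and the library numbered 2 was the lowest in each. The log2 fold change of Egr1 was -0.18 (SE 0.33, 95% interval -0.90 to 0.54), and it turned positive without Control 3 or without Model 2 (0.08 and 0.04).

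Egr2, a zinc-finger factor known from Schwann cells and from T cell anergy, lies on chromosome 10 (67535475 to 67542188). It was at 47.1, 8.18 and 15.3 CPM in Control and 4.65, 3.13 and 19.8 CPM in Model. Model 1 and Model 2 were below all Controls, but Model 3 was above Control 2 and Control 3. The log2 fold change was -1.35 (SE 0.91, 95% interval -3.33 to 0.62, adjusted p = 0.531 by edgeR). It was -0.36 without Control 1, the library that held the highest Egr2 level, and -2.61 without Model 3.

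Egr3 is the paralog often induced beside Egr2 in lymphocytes and lies on chromosome 14 (70077203 to 70082614). It had 250, 236 and 116 counts in Control and 7, 1 and 66 in Model, or 7.08, 5.75 and 3.42 against 0.283, 0.0364 and 2.60 CPM. All Model libraries were below all Controls, which was the case in either direction for 23.5% of genes tested. Only 1 read was counted in Model 2, for which the exact Poisson interval is 0.000922 to 0.203 CPM, covering counting error only. The log2 fold change of -2.47 (SE 1.72, adjusted p = 0.548 by edgeR) was -5.06 without Model 3, -4.11 with the replicate numbers as a block and -3.93 with limma-voom, and the call was not made in any of the 14 other settings. The log2 ratio of Egr1 to Egr3 was 4.8, 4.28 and 6.17 in Control and 8.88, 10.1 and 6.39 in Model (exact permutation p = 0.1, adjusted 0.2). That of Egr2 to Egr3 was 2.72, 0.5 and 2.14 in Control and 3.76, 4.99 and 2.9 in Model (exact permutation p = 0.1, adjusted 0.2). Both Model 2 ratios rest on the 1 Egr3 read there. The ratio of Egr1 to Egr2 overlapped between the groups (exact permutation p = 0.3). For Control 1, 2 and 3 the 3 T cell markers summed to 349, 125 and 186 CPM, and for Model 1, 2 and 3 to 90.9, 69.4 and 42.6 CPM, with none at 0 in a library and 1 of 3 past the test as lower. The 3 B cell markers, 2 of which passed the test as lower, summed to 391 to 680 CPM over the Controls and 153 to 244 CPM over the Model libraries. The part of either cell type in the levels of Egr2 and Egr3 was not tested.

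**Figure D3:**
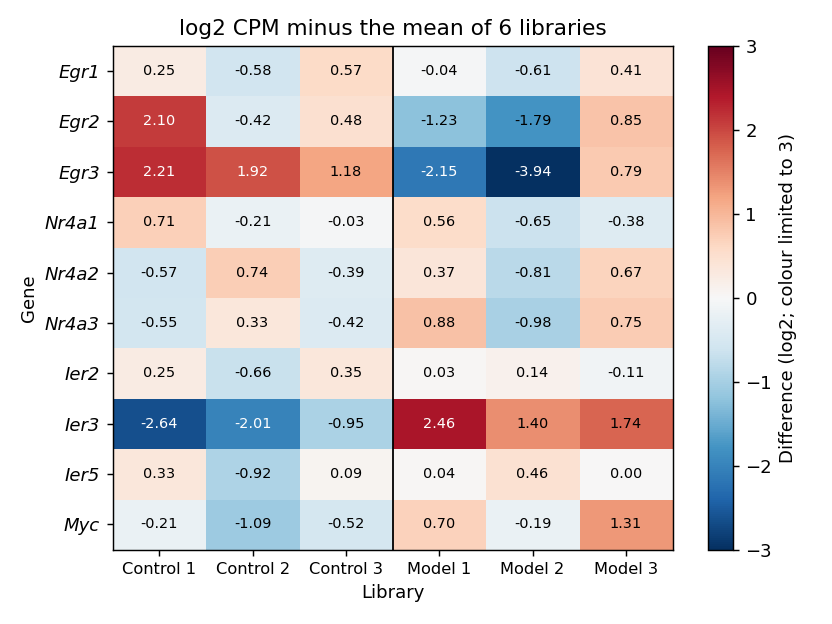
Log2 CPM of each gene minus its mean over the 6 libraries, with Control to the left of the line and Model to the right; colour is limited at 3. Nr4a2 and Nr4a3 share their high libraries (Control 2, Model 1 and Model 3), and Egr2 and Egr3 are both lowest in Model 2.

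The NR4A genes showed no change past the test, and Nr4a2 and Nr4a3 shared their 3 highest libraries. Nr4a1 (also Nur77; chromosome 15, 101254269 to 101274795), a receptor induced in macrophages, T cells and vessel wall, was at 127, 67 and 75.8 CPM in Control and 114, 49.4 and 59.6 CPM in Model. In each group the library numbered 1 was the highest, and the groups overlapped. Its log2 fold change was -0.28 (SE 0.38, 95% interval -1.11 to 0.55), and 0.05 without Control 1. Nr4a2 (Nurr1; chromosome 2, 57106830 to 57124003) is best known for its role in dopamine neurons. It was at 7.10, 17.6 and 8.01 CPM in Control and 13.6, 5.97 and 16.9 CPM in Model, a log2 fold change of 0.16 (95% interval -1.70 to 2.01).

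Nr4a3 (NOR-1; chromosome 4, 48045153 to 48086447), known as a growth-related receptor of smooth muscle, was at 19.9, 36.9 and 21.8 CPM in Control and 53.8, 14.8 and 49.1 CPM in Model. Model 1 and Model 3 exceeded every Control library, and Model 2 was below every one. The log2 fold change was 0.58 (95% interval -0.60 to 1.76), and it ranged from 0.29 to 0.97 over the other settings. Control 2 held the most Nr4a2 and Nr4a3 of the Controls, whereas for Nr4a1 it held the least. The log2 ratio of Nr4a2 to Nr4a3 was -1.48, -1.06 and -1.44 in Control and -1.98, -1.30 and -1.54 in Model. That of Nr4a1 to Nr4a2 spread from 1.82 to 4.15. Of the NR4A pairs, none separated the groups, with exact permutation p from 0.4 to 0.5. The promoters printed above hold equal numbers of TGACG matches in all 3 genes, and any link of these matches to the levels was not tested.

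Myc lies on chromosome 15 (61985391 to 61990374) and encodes the growth-promoting transcription factor that pairs with MAX. Its level was 49.6, 26.8 and 39.9 CPM in Control and 92.8, 50.1 and 142 CPM in Model. The groups did not overlap, as for 12.1% of genes tested in that direction, but Model 2 was only just above Control 1. The log2 fold change was 1.29 (SE 0.42, 95% interval for this gene alone 0.39 to 2.20), with an unadjusted p of 0.00881 and an adjusted p of 0.123 by edgeR. The call depended on the setting: the adjusted p was 0.0476 without Model 2, 0.0263 with no filter and 0.0457 with DESeq2, and it was between 0.0545 and 0.422 in the 11 other settings. The log2 ratio of Myc to Egr1 was -2.0, -2.07 and -2.64 in Control and -0.81, -1.13 and -0.65 in Model, so Myc gained on Egr1 in every Model library (exact permutation p = 0.1, adjusted 0.2). The related genes Mycl and Mycn had fewer reads. Mycl had a log2 fold change of -0.96 (95% interval -3.48 to 1.55), and Mycn was below the filter.

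**Figure D4:**
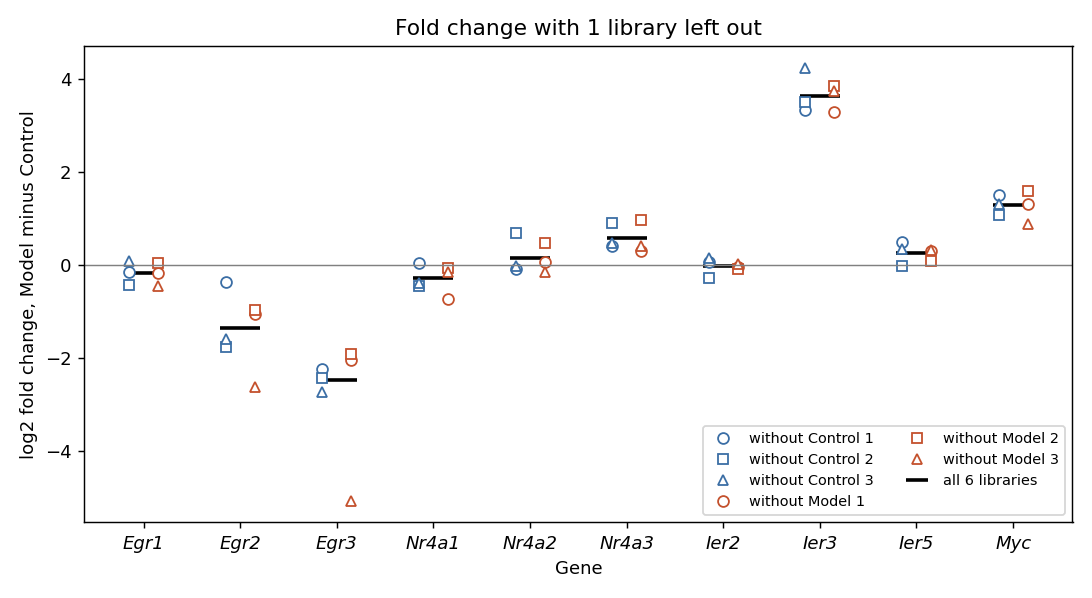
Log2 fold change of each gene with all 6 libraries (black bar) and with 1 library left out (blue, a Control; red, a Model; symbols give its number). Ier3 stays between 3.29 and 4.24, while Egr3 goes to -5.06 without Model 3 and Egr2 to -0.36 without Control 1.

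Levels per length of transcript show the order of the genes. In Control, by CPM per kilobase of annotated exon (GENCODE M21), Egr1 led with 41.7 ± 15.6, followed by Ier2 with 33.1 ± 11.2, Nr4a1 with 25.6 ± 9.23, Ier5 with 19.2 ± 7.66 and Myc with 14.3 ± 4.21 (SD, n = 3). Below them came Ier3 at 7.58 ± 4.59, Egr2 at 6.92 ± 6.10, Nr4a3 at 4.38 ± 1.56, Nr4a2 at 2.69 ± 1.43 and Egr3 at 1.23 ± 0.42. Neighbours in this order had overlapping values in 8 of 9 cases, the exception being Nr4a2 and Egr3. In Model, Ier3 stood first at 94.7 ± 37.0 CPM per kilobase, with no overlap with Egr1 at 36.9 ± 12.6, which in turn overlapped with Myc at 35 ± 16.9. Ier2 at 32.6 ± 2.77, Ier5 at 23.0 ± 4.19 and Nr4a1 at 21.2 ± 9.90 followed, and Nr4a3, Nr4a2, Egr2 and Egr3 lay between 6.55 and 0.221. Neighbours overlapped in 5 of 9 cases there. No exon of the 10 genes overlaps an exon of another annotated gene.

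Library by library, Model 2 was the lowest of the Model group for 8 of the 10 genes, and Control 2 the lowest of the Control group for 6. Control 1 was the highest Control for 5 genes, and Model 3 the highest Model library for 5. The matching shares over all genes tested are not given here, so these counts cannot be read as a trait of the early genes. The genes whose levels over the 6 libraries were most like those of a given gene were found by the root mean square difference of centred log2 CPM among 10679 candidates. With that many candidates over 6 libraries, close matches can arise without any link between genes, and no typical difference is given here. Nearest to Nr4a1 was Tgfb1, the gene of a growth factor of matrix and immune control, with a difference of 0.05, followed by Anks1 and Fam171a1 (0.10 each). Zfp326, Ankrd54 and Kat8 were nearest to Egr1 (0.11, 0.15 and 0.17). Tmem252, Adm, which encodes the vasodilator peptide adrenomedullin, and Ctla2b were nearest to Ier3 (0.32, 0.34 and 0.49), and Cers6, Lpgat1 and Sav1 to Myc (0.28 each). Tgfb1, which is also in the list of EGR1 targets below, stood at 156, 74.8 and 87.2 CPM in Control and 138, 57.9 and 70.2 CPM in Model.

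Genes that act on or with these early genes were described by lists, whose counts of higher genes stand beside the 2.71% of all genes called higher. EGR and IER genes are switched on through ERK kinases, SRF and its ternary complex partners. Of 14 tested genes of that group none passed the test, 3 had an unadjusted p under 0.05 (15.8% of all genes tested did), and the median log2 fold change was -0.20. With no filter on low counts 1 of them was called, as lower in Model, and none with DESeq2. Srf itself, chosen after its values were seen, was at 83.7, 42.6 and 69.7 CPM in Control and 9.78, 35 and 31.6 CPM in Model. Its groups did not overlap, as for 11.4% of genes tested in that direction. The edgeR fit gave it -1.36 on the log2 scale (SE 0.50, adjusted p = 0.192). The EGR corepressors Nab1 and Nab2 had log2 fold changes of 0.08 (95% interval -0.58 to 0.75) and -0.02 (-1.38 to 1.35). Of 8 tested partners of nuclear receptors none passed (1 with an unadjusted p under 0.05, beside the same 15.8%; median 0.05; none with DESeq2), and none of 5 EGF family ligands did (none with an unadjusted p under 0.05; median 1.39; none with DESeq2).

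Among 16 feedback genes of MAP kinase and growth factor signalling, 3 rose and none fell, with a median log2 fold change of 0.94. They were dual-specificity phosphatases, Sprouty-type inhibitors and Errfi1. Errfi1, an inhibitor of the EGF receptor, went from 163, 141 and 172 CPM in Control to 625, 606 and 526 CPM in Model, or 1.88 on the log2 scale (SE 0.23; edgeR adjusted p = 5.61e-04). Spry4, a Sprouty inhibitor, was at 3.51, 14 and 14.1 CPM in Control and 41.8, 54 and 76 CPM in Model (2.44, SE 0.58). Dusp1, a phosphatase of MAP kinases named after its values were seen, was at 165, 79.3 and 195 CPM in Control and 509, 710 and 224 CPM in Model (1.72, SE 0.41). All 3 separated the groups, as did 12.1% of genes tested in that direction, Dusp1 by little. Dusp6, the phosphatase of ERK, also named after its values were seen, was not called and overlapped between groups (104, 49.3 and 70.6 CPM in Control; 105, 45.3 and 81.5 CPM in Model). The count was 1, Errfi1, without Control 2, Model 1 or Model 2. Spry4 lost its call without Control 2 or any 1 Model library (adjusted p = 0.0543 to 0.138, edgeR), and Dusp1 without Control 1, Control 2, Model 1 or Model 2 (0.0867 to 0.120) and with the replicate numbers as a block (0.0568).

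**Figure D5:**
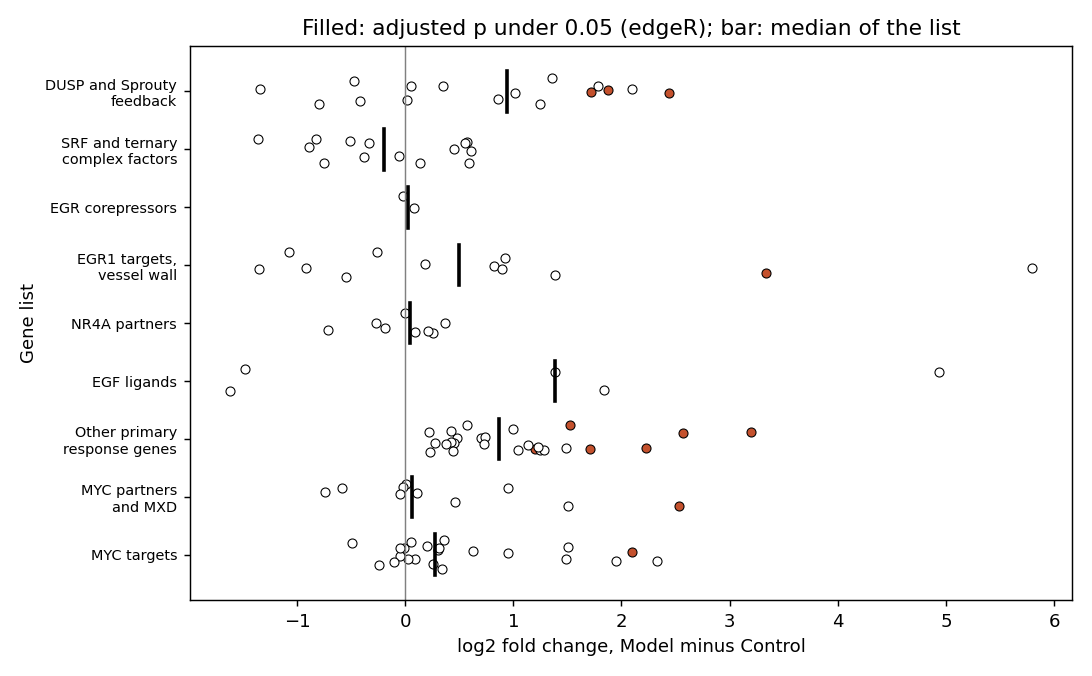
Log2 fold changes of Model minus Control of the tested genes in 9 lists around the early genes; filled points passed the edgeR test and bars mark list medians. The called genes are all higher in Model: 3 feedback genes, 6 other primary response genes, 1 EGR1 target, 1 MYC partner gene and 1 MYC target.

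Of 26 other primary response genes, 6 rose and none fell, and all 26 had positive log2 fold changes, as did 6898 of the 13907 genes tested. Their median was 0.87. The list was chosen with earlier results of these data known, so its shared sign is no test. Nfil3, a bZIP repressor, went from 7.36, 4.92 and 10.7 CPM in Control to 55.9, 69.6 and 86.3 CPM in Model, a log2 difference of 3.20 (SE 0.47). Plk3, a stress kinase, went from 14.2, 12.4 and 9.51 to 62.7, 98.6 and 53.3 CPM (2.57, SE 0.44). Both kept their calls without any 1 library. The other 4, named after their values were seen, were Tiparp (2.23), a target of the aryl hydrocarbon receptor, Plk2 (1.71), the mRNA decay factor gene Zfp36 (1.52) and the matricellular gene Cyr61 (1.20). Plk2 lost its call without Control 1, Control 2 or Model 1 (adjusted p = 0.142, 0.0900 and 0.156, edgeR) and Cyr61 without Control 2 or Model 1 (0.0587 and 0.0577). Without Control 1 and Model 2 together the count was 3.

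Downstream, 1 of 12 listed EGR1 targets of the vessel wall rose, with a median log2 fold change of 0.50. Among 10 tested MYC partners and antagonists, 1 rose: Mxd1, whose product competes with MYC for MAX, went from 53, 34.4 and 44.4 to 258, 318 and 185 CPM (2.53, SE 0.29). The list had a median of 0.06. Max itself, named after its values were seen, was at 82.9, 61.8 and 68.2 CPM in Control and 149, 152 and 111 CPM in Model without passing the test. Of 22 MYC targets of ribosome and nucleotide synthesis, 1 rose, with a median of 0.28. Odc1, the first enzyme of polyamine synthesis, was at 92.5, 95.3 and 111 CPM in Control and 398, 243 and 638 CPM in Model (2.10, SE 0.33), and the count was 2 without Model 2. Mxd1 was highest in Model 2 and Odc1 and Myc in Model 3.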

How the data were processed

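RNA-seq was analysed for 3 Control and 3 Model libraries, grouped by their titles. Per the labels' protocols, ribosomal RNA was depleted, and paired reads were trimmed with cutadapt 1.9.3; STAR 2.5.1b, edgeR 3.16.5 and mm10 are named in the submitters' processing notes. The sources used here do not name the counting tool, annotation or strand setting. The authors deposited raw counts per gene, per the file headers, and these were used; 6 further columns of normalized values were not used. Members and gene lists were chosen with earlier results of these data known.

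The tests ran on edgeR 4.0.16 under R 4.3.3: filterByExpr (minimum count 10), TMM scaling, and the quasi-likelihood test of Model against Control over all genes kept, two-sided, Benjamini-Hochberg threshold 0.05. Standard errors came from the fold change and F statistic. Ratios between members used log2 CPM with a prior count of 2. A count of 0 allows up to 3 counts, at most 0.121 CPM, for counting error only. The fit was tested on simulated data. Every pair of libraries differed by more than sampling noise. The named genes were all members, up to 2 called genes per list and direction with a mean of at least 1 CPM, Nab1 and Nab2, and the 3 genes nearest to each of 4 members with a mean of at least 8 CPM; Egr4 was not analysed here, and 1 gene that the rule names is not reported here. Positions come from GENCODE M21 (GRCm38). Alternatives left out each library or Control 1 with Model 2, and used a replicate block, RLE or upper-quartile scaling, no filter, a minimum count of 100, DESeq2 1.42.0 or limma-voom (limma 3.58.1).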

Additional observations from a re-analysis of the deposited data

How the results depend on the processing

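Of 140 values for the 10 genes under 14 other settings each, 121 kept their direction and their side of the threshold, 16 changed sign and 3, all of Myc, passed it. The cause of these changes was not tested. Without Control 1 and Model 2 together the log2 fold changes were 0.10 for Egr1, 0.06 for Egr2, 0.29 for Nr4a1 and 0.04 for Ier2, and limma-voom gave Ier2 0.07. Myc was 1.27 with no filter and 1.28 with DESeq2, where 2 of the 10 genes were called. Leaving out 1 library gave ranges of -0.46 to 0.08 for Egr1, -2.61 to -0.36 for Egr2, -5.06 to -1.92 for Egr3, -0.73 to 0.05 for Nr4a1, -0.15 to 0.68 for Nr4a2, 0.29 to 0.97 for Nr4a3, -0.28 to 0.15 for Ier2, -0.03 to 0.50 for Ier5 and 0.88 to 1.59 for Myc, and 1 to 2 genes called. The log2 ratio of Nr4a1 to Nr4a2 differed by -0.47 between groups, and by -1.05 to 0.06 with 1 library left out. Nab1 ranged from -0.09 to 0.20 and Nab2 from -0.50 to 0.99; Nab2 was 1.21 without Control 1 and Model 2, and 0.25 with limma-voom. Deviations of same-numbered libraries correlated at 0.15, 0.12 and 0.00. Libraries 1 and 2 correlated best with their own number, and library 3 did not. Weak correlations from so few libraries cannot decide whether the replicate numbers pair the libraries. With the replicate block 575 genes were called, against 566, Ier2 was 0.04, Nab2 0.26, and Dusp1 lost its call (adjusted p = 0.0568, edgeR).

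Over all genes the calls were 317 to 440 with 1 library left out (221 to 312 higher, 92 to 136 lower), 285 without Control 1 and Model 2 (222 and 63), 1111 with no filter (642 and 469) and 1217 with DESeq2 (639 and 578); limma-voom called 115 lower. In the feedback list 1 to 3 genes were called with 1 library left out and 1 without Control 1 and Model 2. The SRF list had 1, lower in Model, with no filter, and the EGR1 targets 3, all higher, with DESeq2. Other primary response genes had 3 without Control 1 and Model 2, and 10 with no filter or with DESeq2; 4 to 7 were called with 1 library left out. MYC partners had 2 with no filter and 3 with DESeq2. MYC targets had 1 to 2 with 1 library left out, 2 without Control 1 and Model 2, 2 with no filter and 4 with DESeq2. Likeness values were recomputed under both other scalings in a step added after seeing the data, and were unchanged. This step could not test them, because a scaling of a library shifts both genes of a pair alike.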
